A study of Rattus norvegicus with 4 samples.

Results

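The 8 complement genes followed here in rat visceral fat were C1qa, C1qb, C1qc, C1s, C2, C3, Cfd and Serping1. They were chosen by name, as components and regulators of complement together with adipsin (Cfd). Of these 8 genes, 7 had a probe set annotated to that gene alone, out of 10411 genes with such a probe set on the array. For C2 the only probe set is annotated to a second gene as well, so C2 was not analysed here. Each of the 7 genes had 1 probe set, and each was above a floor of 20.8, the 20th percentile of all signals, on all 4 arrays.

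Visceral fat of male Wistar rats, 130 days old, was hybridised to 4 arrays, 2 labelled obese and 2 labelled control. The labels do not say how obesity arose, and pooling of animals is not mentioned, so p-values reflect only how these samples scatter, and that scatter may be technical. The deposited values are single-colour intensities on a linear scale, already scaled to a common mean, and they are called signals below. The median signal was 81.9 and 74.9 on obese arrays 1 and 2, and 82.9 and 82.6 on control arrays 1 and 2. The adipocyte genes Fabp4, Lpl and Plin1 gave signals far above the floor on every array, and the lowest of these was 275.3. The obese arrays stood apart from each other in markers of mesothelium, the cell layer that covers visceral fat, whose 5 measured genes summed to 1629 and 366.2 on obese arrays 1 and 2, against 787.1 and 949.4 on control arrays 1 and 2.

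Complement is a cascade of plasma proteins that marks particles and cells for removal. In the classical pathway C1q, built from the products of C1qa, C1qb and C1qc, binds its target and activates the proteases C1r and C1s, which cleave C4 and C2 to form an enzyme that splits C3. In the alternative pathway factor D, the product of Cfd, cleaves factor B and so completes a second enzyme that splits C3. Factor D is also known as adipsin because adipocytes secrete it in quantity, while C1q in tissues comes largely from macrophages. Serping1 encodes the C1 inhibitor, which blocks C1r and C1s.

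Upstream sequence was read for the members that RefSeq's promoter table for the rat assembly GRCr8 holds, 4 of the 8. The 250 bases before the start of each of these 4 genes are shown, and none of the 4 was picked by its signals. C1qa and C1qb are near neighbours whose signals as deposited were lower on both obese arrays. Cfd and C3 had the narrowest and the widest range of signal as deposited among the 7 measured members. Capitals mark matches to 4 short motifs searched on both strands, namely the letters TATAAA of the core promoter box, the letters TTGCNNAA for C/EBP factors, the letters GGAAGT for ETS factors and the letters AGGTCA for nuclear receptors. The motifs were chosen after the sequences were seen, and no matches overlap. The first sequence is chr5:154419934-154420183, the second chr5:154407828-154408077, the third chr9:2201340-2201589 and the fourth chr7:10465497-10465746, all on the minus strand and written 5′ to 3′.
C1qa: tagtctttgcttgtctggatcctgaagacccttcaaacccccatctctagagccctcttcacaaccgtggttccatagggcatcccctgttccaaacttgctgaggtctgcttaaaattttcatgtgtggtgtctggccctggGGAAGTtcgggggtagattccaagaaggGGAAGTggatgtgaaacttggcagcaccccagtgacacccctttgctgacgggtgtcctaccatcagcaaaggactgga
C1qb: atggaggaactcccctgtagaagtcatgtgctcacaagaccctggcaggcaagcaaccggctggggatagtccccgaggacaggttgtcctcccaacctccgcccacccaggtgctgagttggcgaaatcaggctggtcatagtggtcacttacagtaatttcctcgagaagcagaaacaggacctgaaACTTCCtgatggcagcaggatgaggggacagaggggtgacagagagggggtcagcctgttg
C3: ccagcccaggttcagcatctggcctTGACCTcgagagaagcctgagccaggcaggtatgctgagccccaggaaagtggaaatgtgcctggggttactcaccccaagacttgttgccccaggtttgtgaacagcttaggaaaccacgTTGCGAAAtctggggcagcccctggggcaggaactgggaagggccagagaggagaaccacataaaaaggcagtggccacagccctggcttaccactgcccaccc
Cfd: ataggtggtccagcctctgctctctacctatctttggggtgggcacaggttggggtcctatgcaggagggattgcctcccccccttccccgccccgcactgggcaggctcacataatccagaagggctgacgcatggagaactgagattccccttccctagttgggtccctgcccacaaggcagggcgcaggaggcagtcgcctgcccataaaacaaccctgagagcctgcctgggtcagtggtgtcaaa

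The ETS letters occurred 2 times before C1qa and 1 time, on the opposite strand, before C1qb. These letters were present in 19.2% of the 33469 windows of this length in the table. The C3 window held 1 C/EBP match, TTGCGAAA at positions -104 to -97 from the start, and such a match was present in 9.22% of windows. C3 also held 1 match to the nuclear receptor letters, on the opposite strand, a motif found in 14.1% of windows. The core promoter letters, found in 12.9% of windows, occurred in none of the 4, and the Cfd window held no match to any of the 4 motifs. These matches describe letters and were not set against the signals.

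The question was whether these complement genes had other signals in obese than in control fat. None of the 7 measured complement genes passed limma's moderated test, with Benjamini-Hochberg adjusted p between 0.747 and 0.985 over all 12929 tested probe sets. The same test called 0 of the 12929 probe sets, a background of 0%, and 1073 had an unadjusted p under 0.05. None of the 7 members was among those 1073. All 7 log2 differences, obese minus control, were below 0 and ran between -0.29 and -0.02, but those of C1qc and Cfd changed sign when each array was centred on its median. The median over the 7 was -0.13, and over all tested probe sets it was -0.04. No exact permutation test was run, because 2 arrays against 2 allow no two-sided p smaller than 0.333.

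**Figure D1:**
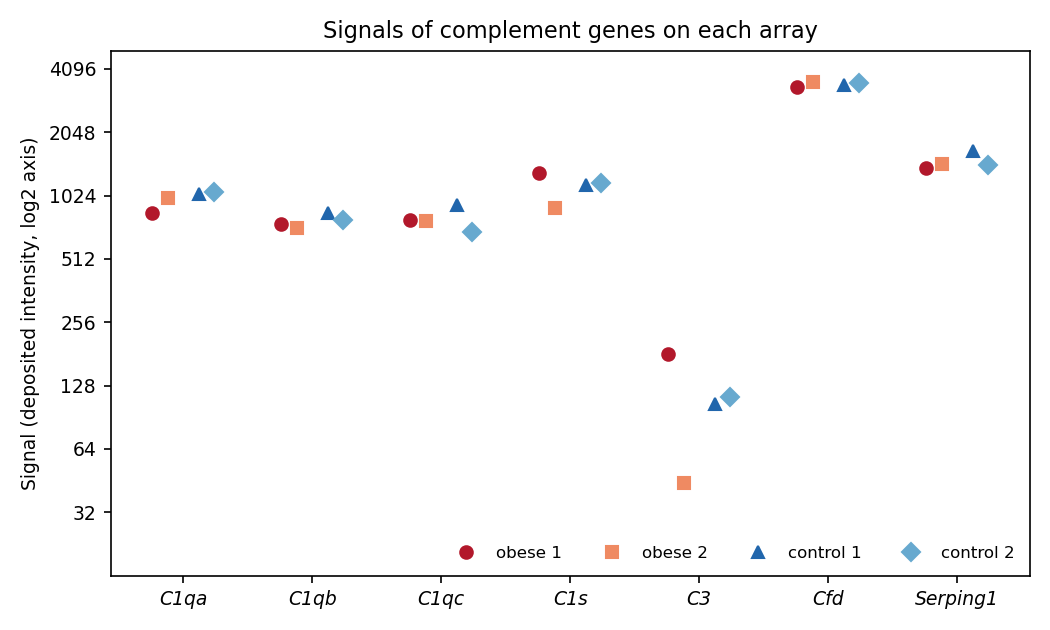
Signal (deposited intensity, log2 axis) of the 7 measured complement genes on obese arrays 1 and 2 (red circle, orange square) and control arrays 1 and 2 (dark blue triangle, light blue diamond), each point being 1 array. The widest spread is that of C3, which lies between 43.9 and 181 on the obese arrays with both controls in between.

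C1q is the recognition subunit of the classical pathway, and its 3 chain genes lie side by side on rat chromosome 5 in the order C1qb, C1qc and C1qa in the GRCr8 annotation. C1qa had signals of 847.7 and 1000.2 on obese arrays 1 and 2, against 1043.6 and 1069.6 on control arrays 1 and 2. Both obese arrays lay below both control arrays. The log2 difference was -0.20 ± 0.14 (SE), with a 95% interval from -0.54 to 0.15 (limma, adjusted p = 0.747).

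C1qb had signals of 747.4 and 719.9 in obese tissue, against 848.7 and 784.2 in control tissue. Its groups did not overlap either, with a log2 difference of -0.15 ± 0.12 and an interval from -0.46 to 0.15 (limma, adjusted p = 0.780). C1qc had signals of 788.4 and 774.2 in obese tissue, against 928.3 and 686.9 in control tissue. For C1qc the control arrays enclosed the obese arrays, and the log2 difference of -0.03 ± 0.17 had an interval from -0.46 to 0.40 (limma, adjusted p = 0.971).

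Of the 7 members, only C1qa and C1qb had groups that did not overlap. Of all tested probe sets, 24.4% had both obese arrays below both control arrays and 15.6% had both above, so 2 of 7 downwards and 0 of 7 upwards is near the background. Median centring of the arrays gave shares over all probe sets of 16.9% below and 21.8% above, and 0 members were separated. Cyclic loess gave 20.3% below and 19.0% above, with 4 members separated, all downwards. Leaving out obese replicate 2 put C1qa at -0.32, leaving out obese replicate 1 put it at -0.079, and leaving out control replicate 1 put C1qb at -0.096.

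Markers of macrophages, the main tissue source of C1q, were measured for 14 of 18 listed genes, and all 14 were lower in obese tissue. For 13 of the 14 both obese arrays lay below both controls, against 24.4% of all probe sets. That count was 13 with median centring, against 16.9%, and 14 with quantile normalization, against 20.6%. All 14 were lower under the 3 other scalings too. The median log2 difference of these markers was -0.62, and their signals summed to 8199 and 8082.6 on obese arrays 1 and 2, against 11740.3 and 15341.8 on control arrays 1 and 2. None of the 14 passed limma over all probe sets (lowest adjusted p = 0.269). Macrosialin, Cd68, had signals of 313.7 and 376.6 in obese tissue, against 522.2 and 906.6 in control tissue, and differed by -1.0 on the log2 scale (-0.60 without control replicate 2). The receptor gene Csf1r, at -0.30 (-0.20 without control replicate 2), and Cd14, at -0.12, stood closer to the C1q chains. A difference between the C1q chains and the other macrophage genes was not tested. In whole tissue, fewer cells of a type and less RNA per cell cannot be told apart.

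**Figure D2:**
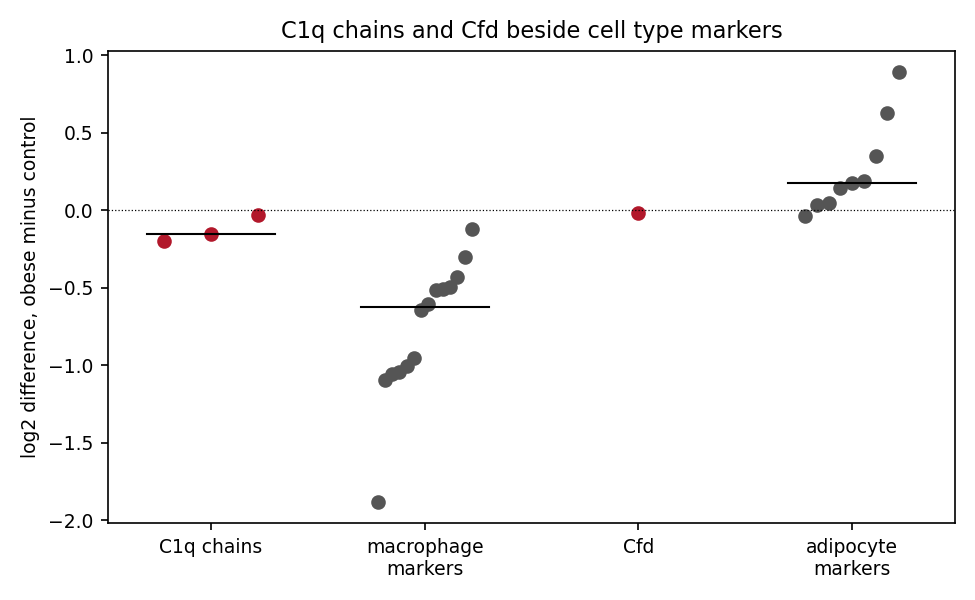
Log2 difference, obese minus control, for the 3 C1q chain genes, 14 macrophage markers, Cfd and 9 adipocyte markers, each point being 1 gene and each horizontal line a group median. The C1q chains lie between -0.20 and -0.03 and the macrophage markers between -1.88 and -0.12. In these signals as deposited, Cfd sits at -0.02 beside adipocyte markers with a median of 0.17. With quantile normalization Cfd was -0.088 and that median 0.11, and with cyclic loess they were -0.12 and 0.072.

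C1s encodes the protease that C1r activates and that cleaves C4 and C2. Its signals were 1308.8 and 898.7 on obese arrays 1 and 2, against 1146.9 and 1181.4 on control arrays 1 and 2. The obese arrays enclosed the control arrays, and the log2 difference was -0.10 ± 0.20 with an interval from -0.60 to 0.39 (limma, adjusted p = 0.914). Its direction depended on the obese array used, since leaving out obese replicate 2 gave 0.17 and leaving out obese replicate 1 gave -0.37. The partner gene C1r, its direct neighbour on chromosome 4, had signals of 948.9 and 802.7 in obese tissue, against 847.5 and 959 in control tissue, and its log2 difference of -0.047 turned to 0.032 with median centring. For both C1r and C1s, obese array 1 was the higher of the 2 obese arrays. Fibroblasts express both genes, and 8 of 11 stromal markers were lower in obese tissue (7 with median centring). Of the 11, 5 were separated downwards and 3 upwards, against 24.4% and 15.6% of all probe sets. Median centring gave 3 each way, against 16.9% downwards and 21.8% upwards. Those markers summed to 14522.5 and 17276.6 on obese arrays 1 and 2, against 17365.7 and 18147.3 on control arrays 1 and 2; their part in the C1r and C1s signals was not tested. Endothelial markers, 6 of 8 listed, had a median log2 difference of 0.03.

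Serping1, whose product is the inhibitor of both proteases, had signals of 1383.4 and 1440.4 in obese tissue, against 1664 and 1437.1 in control tissue. The groups overlapped by a narrow margin, as obese array 2 lay just above control array 2. The log2 difference was -0.13 ± 0.14, with an interval from -0.48 to 0.22 (limma, adjusted p = 0.842). Leaving out control replicate 2 gave -0.24, and leaving out control replicate 1 gave -0.026.

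Cfd was the steadiest member in the signals as deposited. Its signals were 3346.2 and 3533.9 on obese arrays 1 and 2, against 3440.4 and 3515.8 on control arrays 1 and 2. The obese arrays enclosed the control arrays within a span of 0.08 on the log2 scale, and only 127 of the 12929 tested probe sets, or 0.982%, had a narrower span over the 4 arrays. The log2 difference was -0.02 ± 0.15, and its interval in linear terms ran from 0.761-fold to 1.28-fold (limma, adjusted p = 0.985). The difference was 0.063 with median centring, -0.088 with quantile normalization, -0.12 with cyclic loess and 0.023 without obese replicate 1. With quantile normalization and cyclic loess the groups thus differed by more than the span of 0.08 as deposited. That span and its rank are given for signals as deposited only.

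The span of Cfd as deposited was also set beside that of other bright probe sets, a step added after the values were seen. Of the 122 tested probe sets with a mean signal of at least 2000, 2 had a narrower span than Cfd, and the median span of the 122 was 0.32. Only 9 tested probe sets had a higher mean signal than Cfd, and compression of signals at the top of the range was not tested. Adipocyte markers, measured for 9 of 12 listed genes, were higher in obese tissue for 8 of the 9 (9 with median centring, 7 with quantile normalization or cyclic loess), and 3 had both obese arrays above both controls, against 15.6% of all probe sets (21.8% with median centring). They summed to 12913 and 16374.1 on obese arrays 1 and 2, against 13210.3 and 13063.4 on control arrays 1 and 2. None of the 9 passed limma over all probe sets (lowest adjusted p = 0.522). The hormone gene Lep had signals of 539.5 and 1256.4 in obese tissue, against 597.4 and 330.2 in control tissue. Its groups overlapped, and it differed by 0.89 on the log2 scale, by 0.28 and 0.46 without obese or control replicate 2, and by 1.5 without obese replicate 1.

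The genes with profiles most like that of Cfd over the 4 arrays were Mesd, Zfp638 and Plekhg2, by Euclidean distance between log2 signals centred on each gene's mean. Mesd, which encodes a chaperone of lipoprotein receptors, had signals of 382.2 and 401 in obese tissue, against 388.7 and 395.8 in control tissue. The measure rests on 4 arrays, and for a gene as flat as Cfd it picks out other flat genes.

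C3 is the protein on which all complement pathways converge, and its cleavage product tags surfaces. Its signals were 181 and 43.9 on obese arrays 1 and 2, against 105 and 112.9 on control arrays 1 and 2. The obese arrays enclosed the controls and differed from each other by 2.04 on the log2 scale, while the control arrays differed by 0.10. Only 42 of the 12929 tested probe sets, or 0.325%, had a wider gap between the obese arrays. The median gap over all tested probe sets was 0.21 between the obese arrays and 0.18 between the control arrays.

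The mean C3 signal was 112.45 ± 96.9 in obese tissue and 108.95 ± 5.59 in control tissue (SD, n = 2 each), whereas on the log2 scale obese tissue was lower, by -0.29 ± 0.62 (SE; limma, adjusted p = 0.922). The interval ran from 0.284-fold to 2.36-fold, so a change of 2-fold in either direction lay inside it. Leaving out obese replicate 2 gave a log2 difference of 0.73, and leaving out obese replicate 1 gave -1.31. It was -0.13 when the floor was raised to the 40th percentile and -0.18 with a pseudocount in place of the floor. The 2 obese arrays thus gave opposite signs for C3 against the same controls.

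Of all tested probe sets, 10% had obese array 1 highest and obese array 2 lowest, and 2 of the 7 members, C1s and C3, had this order. All 5 measured mesothelial markers (of 8 listed) had it too, and their gaps between the obese arrays ran from 1.54 to 3.17 on the log2 scale. So did 1 of 11 stromal and 1 of 6 endothelial markers, but no adipocyte or macrophage marker. Krt19, a keratin of epithelia and mesothelium, had signals of 405.4 and 47.8 on obese arrays 1 and 2, against 114.7 and 118.5 on control arrays 1 and 2. Msln, mesothelin, had signals of 590.7 and 164.7 in obese tissue, against 375.1 and 491.8 in control tissue. Wt1, a transcription factor of mesothelium, had signals of 252.7 and 86.7 in obese tissue, against 191.1 and 186.6 in control tissue. The part of mesothelial content in the C3 signal was not tested.

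The 3 genes nearest to C3 in profile, by the same distance and out of 9010 genes, were Cdh11, Klf5 and Naxd. Cdh11, a cadherin of mesenchymal cells, had signals of 703.6 and 151 on obese arrays 1 and 2, against 463.9 and 442.1 on control arrays 1 and 2. Klf5, a transcription factor, had signals of 69.8 and 13.6 in obese tissue, against 38.3 and 47.3 in control tissue, with obese array 2 under the floor. Their order over the arrays, high on obese array 1 and low on obese array 2, follows from the choice of the nearest profiles. Liver markers, which include the major plasma protein genes, were measured for 9 of 10 listed genes and summed to 520.2 and 483.5 on obese arrays 1 and 2, against 362.4 and 482.7 on control arrays 1 and 2. None of the 8 tested liver markers had the array order of C3, against 10% of all tested probe sets. The part of liver RNA in the C3 signal was not tested. Apoa1 was under the floor on all 4 arrays.

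**Figure D3:**
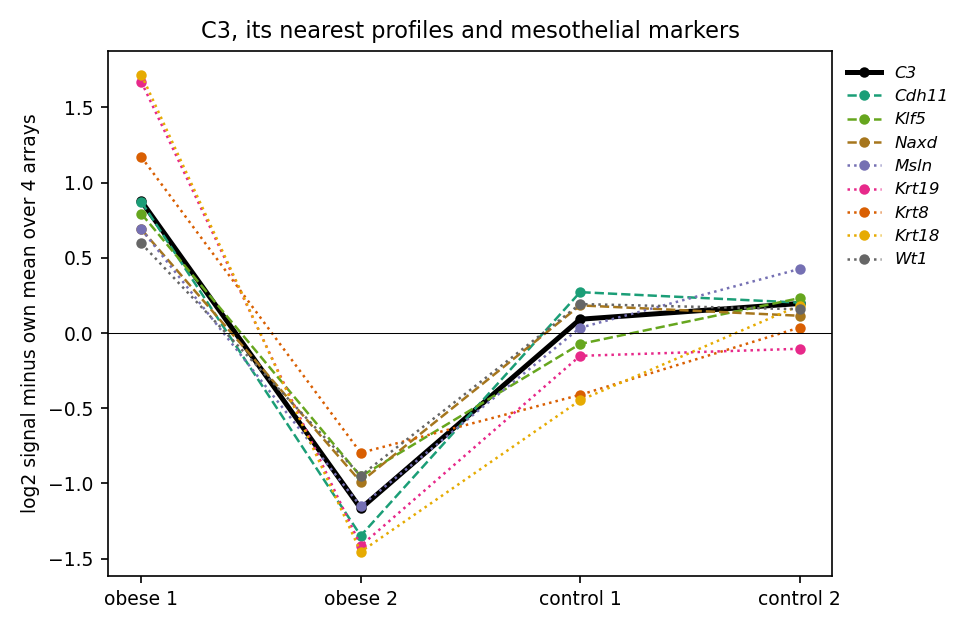
Log2 signal minus each gene's own mean over the 4 arrays for C3 (thick black line), its 3 nearest profiles (dashed) and 5 mesothelial markers (dotted), on obese arrays 1 and 2 and control arrays 1 and 2; lines only join the values of 1 gene. Every gene shown is highest on obese array 1 and lowest on obese array 2, which for the dashed lines follows from how they were chosen.

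Further genes of the complement pathway were taken from a list of 56 symbols, of which 29 had a probe set of 1 gene and 27 were tested. By their brightest probe sets, none of the 27 passed limma in either direction (adjusted p between 0.557 and 0.986). By the same probe sets 2, Fcna and C3ar1, had an unadjusted p under 0.05 (limma). Of the 27, 11 were higher and 16 lower in obese tissue (13 and 14 with median centring), with a median log2 difference of -0.14. Both obese arrays lay above both controls for 2 and below them for 9, against 15.6% and 24.4% of all probe sets. Median centring gave 6 each way, against 21.8% above and 16.9% below.

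Among the recognition molecules and proteases that start the cascade, 7 were tested and 5 were lower (4 with median centring). Fcna, ficolin A, a lectin of the lectin pathway, had signals of 566.2 and 684.6 in obese tissue, against 796.6 and 831.8 in control tissue. Both obese arrays lay below both controls, and the log2 difference of -0.39 ± 0.14 did not pass (limma, adjusted p = 0.574). It was -0.25 without obese replicate 1. Masp1, a protease of the lectin pathway, gave -0.14 with its brightest probe set and -0.01 with the other that was tested, and the brightest gave -0.034 without obese replicate 1.

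Of the later components, 3 were tested, and 2 of these lay lower in obese tissue with no overlap, against 24.4% of all probe sets. That count was 0 with median centring, against 16.9%, and 1 with quantile normalization or cyclic loess, against 20.6% and 20.3%. With median centring or quantile normalization 1 of the 3 lay higher with no overlap, against 21.8% and 18.7% of all probe sets. Cfp, properdin, which stabilizes the C3-splitting enzyme of the alternative pathway, had signals of 157.6 and 179 in obese tissue, against 193.1 and 317.1 in control tissue. Its log2 difference was -0.56 ± 0.25 (limma, adjusted p = 0.625), and -0.20 without control replicate 2. The second Cfp probe set had signals of 76.7 and 41.9 in obese tissue, against 117.9 and 190.5 in control tissue. Its log2 difference was -1.40 and did not pass either (limma, unadjusted p = 0.009, adjusted p = 0.467). C9 and C8b, which encode parts of the membrane attack complex, gave -0.49 and 0.14 at dim signals between 34.7 and 76.8. C9 gave -0.17 without obese replicate 1, -0.82 without obese replicate 2 and -0.27 when the floor was raised to the 40th percentile.

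Among 11 tested regulators, 7 were higher and 4 lower in obese tissue (6 and 5 with quantile normalization), with a median of 0.07. That median was 0.15 with median centring, 0.16 with quantile normalization and 0.17 under cyclic loess. Clu, clusterin, which inhibits the membrane attack complex, had signals of 1430.6 and 914.9 on obese arrays 1 and 2, against 1567.9 and 1371.9 on control arrays 1 and 2. Its groups overlapped, and the log2 difference was -0.36 ± 0.23 (limma, adjusted p = 0.732). Without obese replicate 2 it was -0.036, and without obese replicate 1 it was -0.68. Cd59b, a membrane protein that blocks the same complex, had signals of 920 and 1247.4 in obese tissue, against 902.5 and 917.2 in control tissue, and both obese arrays lay above both controls, with a log2 difference of 0.24 (limma, adjusted p = 0.763). It was 0.016 without obese replicate 2. Cr1l, the rodent regulator Crry, gave 0.015, a sign that turned with quantile normalization.

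Of 6 tested receptors and binding proteins, 5 were lower in obese tissue (4 with median centring). Of the 6, 3 lay lower with no overlap, against 24.4% of all probe sets. With quantile normalization 4 did, against 20.6%. With median centring 3 lay lower and 1 higher with no overlap, against 16.9% and 21.8% of all probe sets. C5ar1, the receptor for the C5a peptide on myeloid cells, had signals of 240.7 and 204.5 in obese tissue, against 247.5 and 363.8 in control tissue. Its log2 difference was -0.44 ± 0.22 (limma, adjusted p = 0.654), and -0.16 without control replicate 2. C3ar1, the receptor for the C3a peptide, was named after its values were seen. It had signals of 25.2 and 22.1 in obese tissue, against 32.6 and 57.8 in control tissue, all of them dim, and its groups did not overlap. Its log2 difference was -0.88 ± 0.31 (limma, adjusted p = 0.557). It was -0.47 without control replicate 2 and -0.54 with a pseudocount in place of the floor, and at a floor of the 40th percentile it was not tested. The ubiquitous proteins C1qbp and Calr gave 0.12 and -0.03. Leaving out control replicate 2 put C1qbp at 0.035, and the sign of Calr turned with median centring. Macrophages also express C5ar1, C3ar1 and Cfp, and the macrophage signals given above were lower in obese tissue too; their part in these values was not tested.

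**Figure D4:**
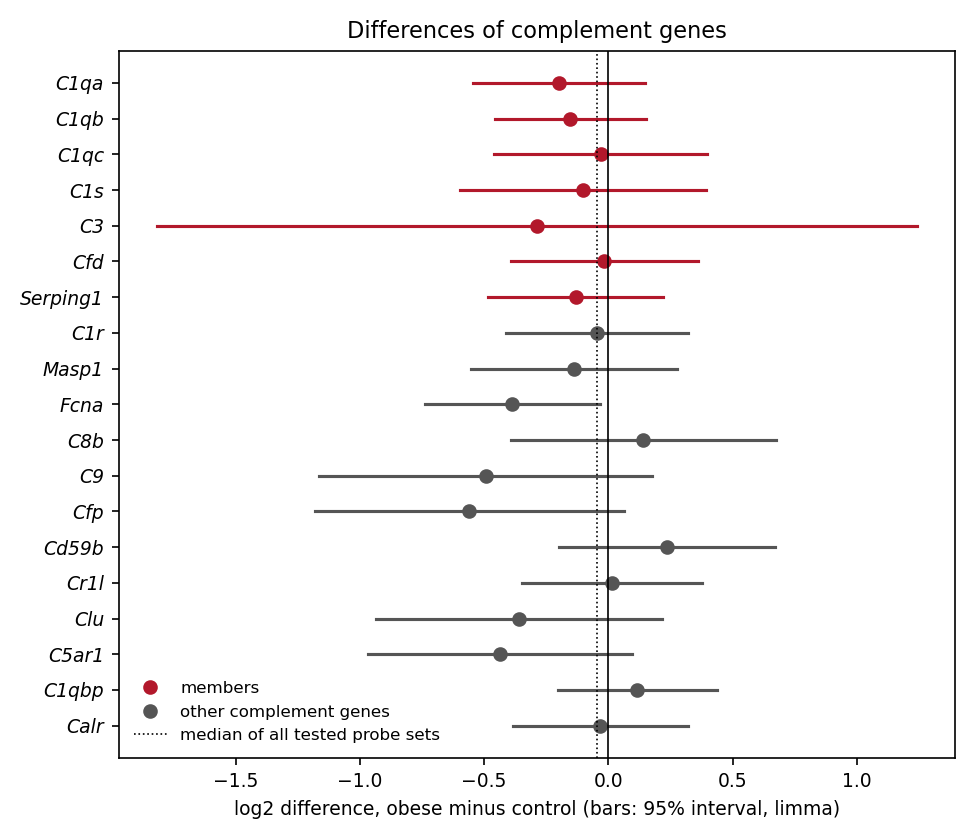
Log2 difference, obese minus control, with the 95% interval from limma, for the 7 measured members (red) and 12 other complement genes (grey); the dotted line is the median of all tested probe sets, -0.04. Every member's interval includes 0, and C3 has the widest, from -1.82 to 1.24.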

How the data were processed

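Each probe set has 1 deposited intensity for each array, linear judging from the values. How the authors scanned and normalized the arrays is not given in the sources used here. The means after trimming 2% at each end lay between 150.026 and 150.03, so the deposited intensities were used as scaled. Of 15923 probe sets, 57 controls were left out. Of the others, the platform annotation gives 12783 1 symbol, 312 several and 2771 none, and names were taken from the 12783. Entrez identifiers matched 12748 of these in the GRCr8 table and changed 0 symbols.

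Signals were raised to a floor of 20.8 (20th percentile over all arrays) and put on the log2 scale. A probe set was tested when 2 or more arrays lay above the floor. Obese minus control was fitted with limma 3.58.1 in R 4.3.3 (lmFit, eBayes with a trend, 5.83 degrees of freedom), two-sided, at a Benjamini-Hochberg adjusted p of 0.05 over all tested probe sets. The code was tested on simulated data, with changes set in probe sets well above the floor. There the test called 69% of 4-fold and 19.8% of 2-fold changes. Failing to pass thus does not show equal signals. The main probe set of a gene had the highest mean signal.

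The members and lists were chosen with earlier results of these data known. All members were named. Of the other complement genes, values are given for the 3 of each role with the highest mean signal, and of markers where a result turned on them. For Cfd and the other member with the widest range, the 3 nearest profiles were named. The alternatives were 3 scalings, 2 floors, a pseudocount, 2 filters, 2 variance models, the mean of all probe sets of a gene, a replicate block, and fits without each array in turn. The number of arrays, 2 per group, limits precision.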

Additional observations from a re-analysis of the deposited data

How the results depend on the processing

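No alternative brought a member or a named complement gene past the threshold. The number of all probe sets passing limma was 0, and it was 3 with a pseudocount in place of the floor, 6 with no filter, and 1 each without the variance trend and with robust variance; leaving out 1 array gave 0 each time. The members' median of -0.13 was -0.052 with median centring, -0.17 with quantile normalization, -0.19 under cyclic loess, and between -0.21 and -0.056 with 1 array left out. The number of members without overlap, 2, was 0 with median centring, 4 with cyclic loess and between 3 and 6 with 1 array left out, where 1 array against 2 overlaps less often by construction. For the same reason the 2015 probe sets separated upwards became 3493 to 4150 and the 3154 separated downwards became 4664 to 5943. The median of the other complement genes, -0.14, was -0.059 with median centring, -0.072 with the mean over probe sets and between -0.20 and -0.11 with 1 array left out. Median centring turned C1qc to 0.048, Cfd to 0.063, C1r to 0.032 and Calr to 0.046, and quantile normalization turned Cr1l to -0.00080; the cause was not tested. With 1 array left out the log2 difference ran from -0.25 to 0.19 for C1qc, from -0.37 to 0.17 for C1s, from -1.31 to 0.73 for C3, from -0.056 to 0.023 for Cfd, from -0.17 to 0.074 for C1r, from -0.026 to 0.31 for C8b, from -0.13 to 0.16 for Cr1l, from -0.12 to 0.056 for Calr, and for the marker Cd14 from -0.25 to 0.0074. The titles number the arrays 1 and 2 in both groups, but state no pairing, and the deviations of same-numbered arrays correlated with r = 0.05 over 12929 probe sets. With the number as a replicate block, 0 probe sets passed and the adjusted p was 0.714 for C1qa, 0.769 for C1qb and 0.979 for Cfd. Dim signals such as C3 on obese array 2 lie near the floor, where precision is lowest.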
